A study of Homo sapiens with 6 samples.

Results

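The mitochondrial ribosomal protein genes were examined in RNA-seq libraries of Kasumi-1, a human acute myeloid leukemia cell line that carries the t(8;21) translocation and its RUNX1-RUNX1T1 fusion. Members were the protein-coding genes of the deposited knockout-against-control table whose symbol begins with MRPL or MRPS followed by a digit. The rule found 52 of the 7983 genes listed, 36 named for the large subunit and 16 for the small subunit. GENCODE release 29 holds 78 protein-coding genes with such names, 49 MRPL and 29 MRPS, so 26 of them, 13 of each kind, are outside the table and were not analysed here. The control group was 3 libraries of cells given non-targeting guide RNA (sgNT), labelled WT. The other group was 3 libraries of cells given CRISPR/Cas9 guide RNA against SETD8 (gene symbol KMT5A), labelled SETD8 knockout. All 6 came from this 1 cell line, grown in serum-supplemented RPMI medium, and RNA was enriched with poly-T beads before library preparation. The labels do not say whether the knockout cells were a pool or a clone, or whether equal-numbered libraries share a culture. Nor do they say whether the numbers in the titles mark different guides or repeats of 1 guide. The p-values therefore measure the spread between these libraries, which may be technical.

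The mitochondrial ribosome translates the few messages of the mitochondrial genome, which encode core subunits of the respiratory chain and ATP synthase. Its ribosomal RNAs are transcribed inside the organelle, whereas every protein of both subunits is encoded in the nucleus, made in the cytosol and imported. The small subunit binds the message and decodes it, and the large subunit forms peptide bonds and holds the exit tunnel at the inner membrane. Some of its proteins descend from bacterial ribosomal proteins and others are specific to mitochondria. Leukemic blasts of the myeloid lineage have often been described as reliant on mitochondrial respiration. SETD8 is the enzyme that adds a single methyl group to lysine on the tail of histone H4.

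Promoters of 6 members are printed here so that the results can be read against the DNA next to each gene. They were taken from RefSeq on GRCh38.p14, 5′ to 3′ on the gene's own strand, and run up to the base before RefSeq's transcription start. That of MRPL17 was shortened where it entered the table's gene model, and the others enter it by at most 21 bases. RefSeq windows were matched by symbol for 44 of the 52 members. Capitals mark the letters CCGGAA or the reverse complement TTCCGG, the core bound by ETS-family factors such as GABPA, and the letters TGCGCA, the core of the NRF1 site. Both factors are known regulators of nuclear genes for mitochondrial proteins. MRPL20 is shown as one of the members that rose most, MRPL3 as the most abundant, and MRPL17 for its adjoining NRF1 cores. MRPL43 and MRPS34 rose among neighbouring genes that were mostly lower, and MRPL58 fell.
MRPL20, chr1:1407294-1407543, minus strand: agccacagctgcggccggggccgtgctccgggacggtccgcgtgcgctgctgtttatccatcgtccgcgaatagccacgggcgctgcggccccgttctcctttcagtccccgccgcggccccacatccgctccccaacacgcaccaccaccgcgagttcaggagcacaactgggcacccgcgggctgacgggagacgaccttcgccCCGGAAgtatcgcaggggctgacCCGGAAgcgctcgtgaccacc
MRPL3, chr3:131502972-131503221, minus strand: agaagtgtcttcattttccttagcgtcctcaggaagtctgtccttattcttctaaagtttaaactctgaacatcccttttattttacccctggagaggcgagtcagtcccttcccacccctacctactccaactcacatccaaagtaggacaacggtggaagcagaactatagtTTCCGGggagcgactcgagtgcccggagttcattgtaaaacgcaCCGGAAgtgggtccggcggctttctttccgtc
MRPL17, chr11:6683402-6683590, minus strand: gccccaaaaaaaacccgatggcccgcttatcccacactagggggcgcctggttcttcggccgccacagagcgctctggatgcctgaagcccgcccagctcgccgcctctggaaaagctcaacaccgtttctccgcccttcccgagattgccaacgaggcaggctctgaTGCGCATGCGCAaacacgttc
MRPL43, chr10:100987498-100987747, minus strand: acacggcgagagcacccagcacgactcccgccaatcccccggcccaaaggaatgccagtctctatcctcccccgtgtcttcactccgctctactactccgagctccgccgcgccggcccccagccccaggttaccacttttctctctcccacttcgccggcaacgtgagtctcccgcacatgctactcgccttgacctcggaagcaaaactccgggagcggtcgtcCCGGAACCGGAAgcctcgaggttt
MRPS34, chr16:1773135-1773384, minus strand: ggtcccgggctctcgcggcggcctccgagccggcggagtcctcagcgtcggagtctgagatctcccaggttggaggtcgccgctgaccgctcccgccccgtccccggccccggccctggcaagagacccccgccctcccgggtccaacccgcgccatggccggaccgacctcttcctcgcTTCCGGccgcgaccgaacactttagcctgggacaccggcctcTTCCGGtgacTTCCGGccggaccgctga
MRPL58, chr17:75012420-75012669, plus strand: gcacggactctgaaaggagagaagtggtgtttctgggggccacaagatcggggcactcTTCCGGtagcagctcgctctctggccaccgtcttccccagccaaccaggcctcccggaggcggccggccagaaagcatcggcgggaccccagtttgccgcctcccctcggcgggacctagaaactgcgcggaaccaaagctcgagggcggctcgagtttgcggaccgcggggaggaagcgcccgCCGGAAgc

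Of the 55 member windows, each of 250 bases before and 50 after a start, 50.9% held the ETS core on either strand. The share was 26.7% of 7998 windows of other tested protein-coding genes and 17.2% of all 35116 windows. The NRF1 core was in 23.6% of member windows, 12.2% of the other tested windows and 8.24% of all. The E-box CACGTG, which MYC and other factors bind, was in 9.09%, 10.1% and 7.26% respectively. The YY1 core AAGATGG or CCATCTT, which was searched after the others had been seen, was in 29.1%, 7.44% and 5.84%. These are matches of letters, not measured binding. The median GC content was 61.7% in member windows, 65% in the other tested windows and 58.7% in all. The 27 members with the ETS core had a median log2 fold change of 0.34, with 23 higher and 2 lower. For the 17 without the ETS core the median was 0.48, with 14 higher and 3 lower. The 14 members with the YY1 core had a median of 0.23, with 10 higher and 3 lower, and the 30 without it had a median of 0.36, with 27 higher and 2 lower. These differences were not tested.

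The deposited values are read counts divided by size factors, and 10966349 to 12557974 reads per library fell in the listed genes. The table lists genes whose unadjusted p-value in the authors' own test was at most 0.05, so it was selected for change and the background of every count below is high. Genes with a mean of at least 10 were tested with limma-trend on log2(normalized count + 1), with Benjamini-Hochberg adjustment over the 19860 genes the authors adjusted over, and called at an adjusted p below 0.05. This left 7516 genes, all 52 members among them. KMT5A itself had normalized counts of 1191, 1212 and 1255 in control 1 to 3 and 880, 933 and 939 in knockout 1 to 3, a log2 fold change of -0.41 (limma-trend SE 0.070 and adjusted p = 5.65e-05). The 7 markers written for this line (KIT, CD34, CD33, MPO, PTPRC, RUNX1T1 and RUNX1) were all in the table, 2 called higher and 3 lower. Of all tested genes 47.3% were called higher and 46.7% lower. MPO had a log2 fold change of -2.99, PTPRC of -1.17 and KIT of -0.48, while CD33 was at 1.19 and RUNX1 at 0.65. CD34 (0.13) and RUNX1T1 (0.15) were not called. Of 7 markers of other blood cells, 3 were tested (CD3D, CD79A and ITGA2B), 2 called higher and 1 lower, with a summed normalized count of 1289 to 1301 in control and 1533 to 1739.7 in knockout libraries. HBB, HBA1, PF4 and CD3E are outside the table. The part of these markers in the members' changes was not tested, and in bulk RNA a change in the mix of cells cannot be told apart from a change per cell.

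Most mitochondrial ribosomal protein genes in the table were higher in the SETD8 knockout. Of the 52 members, 44 were called higher, 6 lower and 2 in neither direction. Over all tested genes 94.1% were called in either direction, 47.3% higher and 46.7% lower. The median log2 fold change of the members was 0.35, against 0.14 over all tested genes and 0.16 over the tested protein-coding ones, and 45 of the 52 members (86.5%) were above 0 against 50.4% of all tested genes. The share of members called in either direction was thus near that of the whole table, and the counts by direction are to be read against its nearly even split. The changes were moderate, from -0.85 for MRPL10 to 0.91 for MRPL13 on the log2 scale. In 41 members every knockout library lay above every control library and in 7 every one lay below, while MRPL12, MRPL54, MRPS5 and MRPS15 overlapped. Such separation was found in 95.4% of all tested genes, upwards in 48% and downwards in 47.4%. In the authors' deposited table, an adjusted p below 0.05 was given to 39 members that were higher and 5 that were lower, and 83.4% of all listed genes had one.

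**Figure D1:**
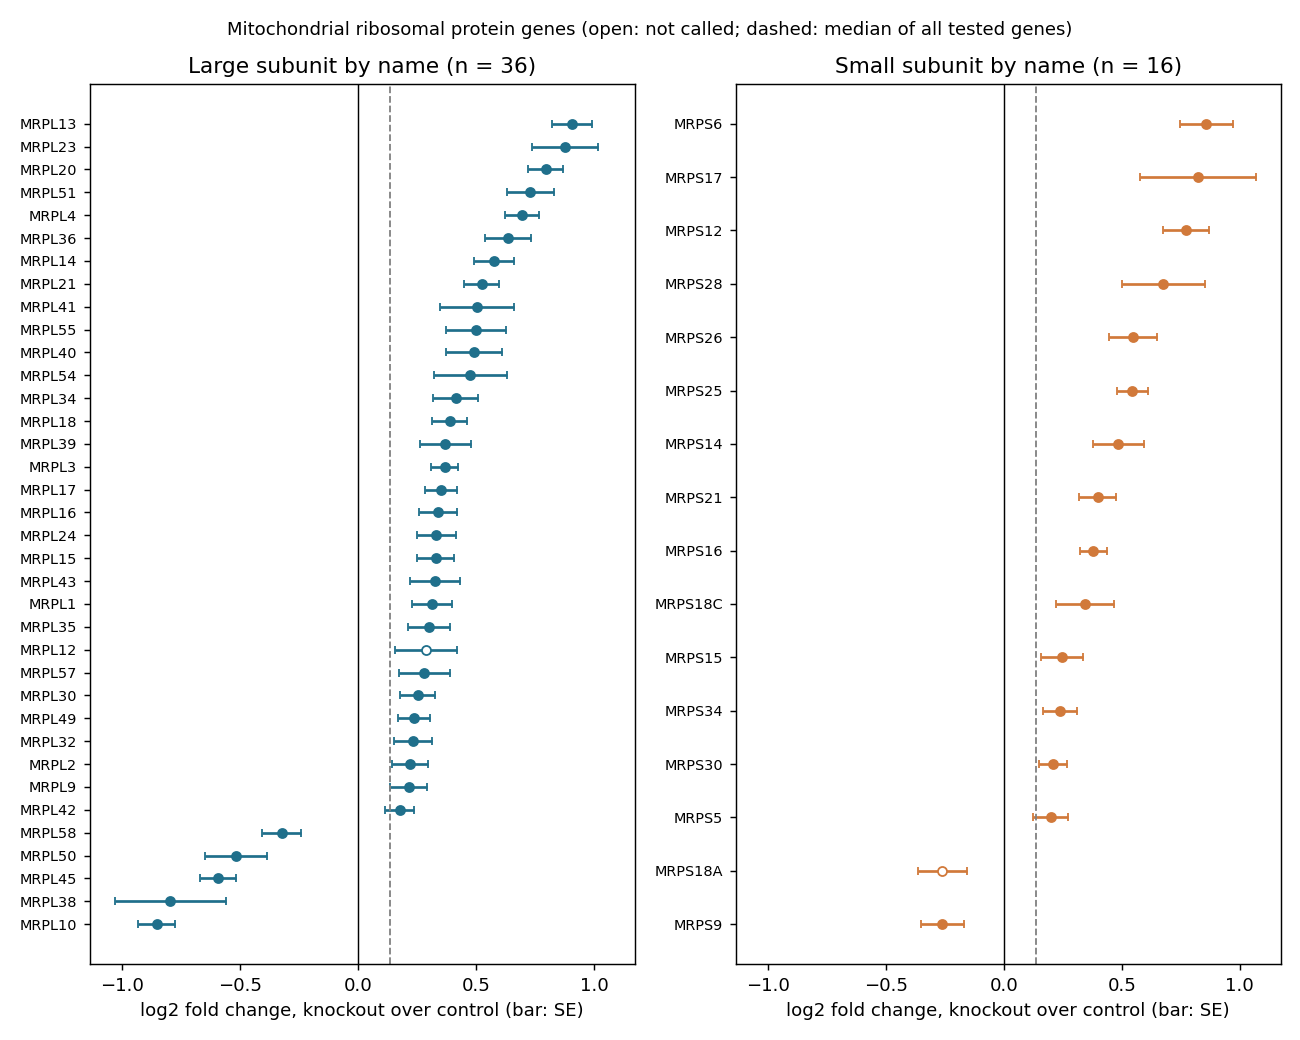
Log2 fold change, knockout over control, of all 52 members in order, with the standard error of limma-trend as bars and the large and small subunit in different colours. From MRPL10 at -0.85 to MRPL13 at 0.91, 45 of the 52 lie above 0.

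Of the 36 large-subunit genes, 30 were called higher and 5 lower, and their median log2 fold change was 0.33. MRPL13 (ENSG00000172172, chromosome 8, bases 120380761 to 120445402 on hg38), whose product is the mitochondrial form of bacterial L13, had normalized counts of 717, 642 and 708 in the controls and 1454, 1293 and 1145 in the knockouts. The lowest knockout library was well above the highest control, and the log2 fold change was 0.91 (limma-trend SE 0.086 and adjusted p = 1.35e-08). MRPL23 (ENSG00000214026, chromosome 11, 1947278 to 1984522), whose protein lines the mouth of the exit tunnel, went from 187, 164 and 226 to 370.0, 382 and 306 with no overlap. Its log2 fold change was 0.88 (limma-trend SE 0.140 and adjusted p = 2.21e-05). An antisense gene, MRPL23-AS1, overlaps its end and was listed at 13.9 to 51.1 in controls and 0.934 to 5.96 in knockouts. The labels do not say whether reads were counted by strand, and the value of MRPL23 is uncertain to that extent.

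MRPL20 (ENSG00000242485, chromosome 1, 1401908 to 1407313), the mitochondrial form of L20, a protein bound early in bacterial large-subunit assembly, had 782, 727 and 711 in the controls. The knockouts held 1358, 1278 and 1218, all above the controls, for a log2 fold change of 0.79 (limma-trend SE 0.075 and adjusted p = 1.35e-08). Its printed promoter carries both of its ETS cores within 44 bases of the start. MRPL51 (ENSG00000111639, chromosome 12, 6491886 to 6493841), a mitochondria-specific protein, had 728, 543 and 666 against 1153, 1129.98 and 925. The groups were apart, and the log2 fold change was 0.73 (limma-trend SE 0.101 and adjusted p = 3.67e-06). MRPL4 (ENSG00000105364, chromosome 19, 10251901 to 10260045), which reaches into the exit tunnel, had 1183, 1047 and 1114 against 1894, 1876 and 1655, a log2 fold change of 0.70 (limma-trend SE 0.072 and adjusted p = 5.12e-08). These 5 genes rose most in the large subunit and kept their calls without any 1 library.

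MRPL3 (ENSG00000114686, chromosome 3, 131462212 to 131502983), which lies near the peptidyl transferase centre, was the most abundant member by normalized count. It had 3822, 3677 and 3716 in the controls and 5136, 4836 and 4506 in the knockouts, again with no overlap. The log2 fold change was 0.37 (limma-trend SE 0.058 and adjusted p = 2.12e-05). Among the other higher members with bacterial relatives, MRPL36 had a log2 fold change of 0.63, MRPL14 of 0.58, MRPL21 of 0.52 and MRPL55 of 0.50. MRPL34 followed at 0.41, MRPL18 at 0.39, MRPL17 at 0.35, MRPL16 at 0.34, MRPL24 at 0.33 and MRPL15 at 0.33. Smaller rises were those of MRPL1 (0.31), MRPL35 (0.30), MRPL30 (0.25), MRPL32 (0.23), MRPL2 (0.22) and MRPL9 (0.21). Of the mitochondria-specific ones, MRPL41 (0.50), MRPL40 (0.49), MRPL54 (0.48) and MRPL39 (0.37) rose more than MRPL43 (0.33), MRPL57 (0.28), MRPL49 (0.24) and MRPL42 (0.18). MRPL57 lost its call on leaving out any 1 library but knockout 3. The calls of MRPL2, MRPL9, MRPL30, MRPL32, MRPL35, MRPL39, MRPL41, MRPL42, MRPL43 and MRPL49 were lost without at least 1 library. MRPL54 was called although its groups overlapped, with 307 to 504 in controls and 490.3 to 744 in knockouts. Without control 1, its lowest library, its adjusted p was 0.233, and without knockout 1, its highest, 0.208.

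The 5 large-subunit genes that fell were MRPL10, MRPL38, MRPL45, MRPL50 and MRPL58, and all but MRPL50 lie on chromosome 17. MRPL10 (ENSG00000159111, 47823272 to 47831534), at the base of the stalk to which translation factors dock, had 1383, 1566 and 1662 in the controls and 905, 827 and 811 in the knockouts. Every knockout library was below every control, and the log2 fold change was -0.85 (limma-trend SE 0.078 and adjusted p = 7.29e-09). MRPL45 (ENSG00000278845, 38297023 to 38323218), which ties the large subunit to the inner membrane, had 1445, 1429 and 1530.05 against 1019, 1032 and 870.3. Its groups were apart too, with a log2 fold change of -0.60 (limma-trend SE 0.075 and adjusted p = 1.04e-06).

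MRPL38 (ENSG00000204316, 75898643 to 75905413) was scarce, with 114, 119.6 and 84.2 in the controls and 44.8, 60.6 and 79.4 in the knockouts. The libraries nearest to each other, control 3 and knockout 3, differed little, and the log2 fold change was -0.80 (limma-trend SE 0.236 and adjusted p = 0.00997). Without control 1, control 2 or knockout 1 its adjusted p was 0.0516, 0.0591 and 0.0608. MRPL58 (ENSG00000167862, 75012670 to 75021261), also called ICT1, a peptidyl-tRNA hydrolase built into the large subunit that can free stalled ribosomes, had 692, 756 and 777 against 597, 594 and 583. The 3 knockout libraries were nearly equal, all below the controls, at a log2 fold change of -0.32 (limma-trend SE 0.084 and adjusted p = 0.00346). MRPL50 (ENSG00000136897, chromosome 9, 101387633 to 101398614), a mitochondria-specific protein, had 438, 373 and 369 against 326, 274 and 229. Its groups did not overlap, and the log2 fold change was -0.52 (limma-trend SE 0.130 and adjusted p = 0.00271).

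MRPL12 (ENSG00000262814, chromosome 17, 81703357 to 81707526), the stalk protein held by MRPL10, was the large-subunit gene in neither direction. It had 406, 512 and 489 in the controls and 509, 754 and 482 in the knockouts. Only knockout 2 lay above the controls, and the log2 fold change of 0.29 (SE 0.132) had a limma-trend adjusted p of 0.109. Without knockout 3 the adjusted p was 0.0238, with a block for the replicate number 0.0329, and with adjustment over the 7516 tested genes only 0.0413. The stalk thus held 1 member that was lower in every knockout library and 1 whose groups overlapped.

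**Figure D2:**
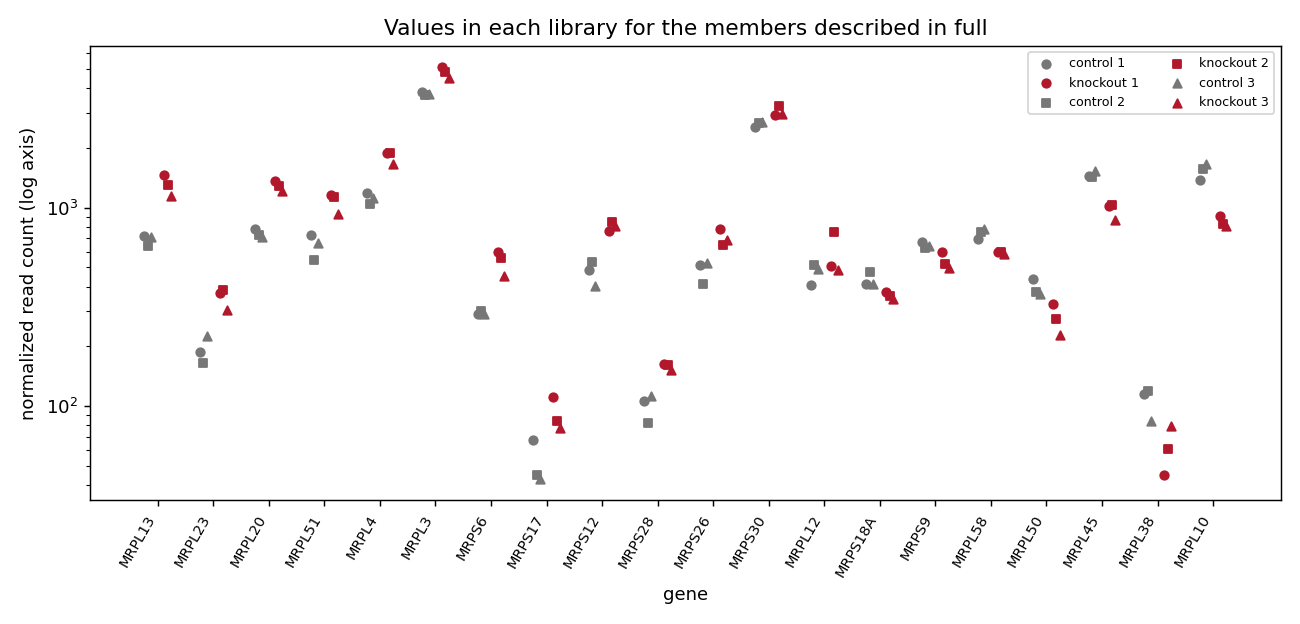
Normalized count of 20 members in each of the 6 libraries on a log axis, with control and knockout libraries as separate points. MRPL13, MRPL23 and MRPS6 sit higher in all 3 knockout libraries and MRPL10 lower, while the points of MRPL12 overlap.

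Of the 16 small-subunit genes, 14 were called higher and 1 lower, and their median log2 fold change was 0.39. MRPS6 (ENSG00000243927, chromosome 21, 34073224 to 34143034), on the platform of the subunit, had 289, 300.4 and 289 in the controls and 598, 555 and 453 in the knockouts. The controls were almost level and all knockouts far above them, at a log2 fold change of 0.86 (limma-trend SE 0.113 and adjusted p = 1.76e-06). MRPS6 overlaps SLC5A3 on the same strand, whose mean went from 1219 to 1948 (log2 fold change 0.68). Reads may be shared between these 2 genes, and the value of MRPS6 is uncertain to that extent. MRPS12 (ENSG00000128626, chromosome 19, 38930548 to 38933162), whose bacterial relative S12 lies at the decoding centre and is the site of streptomycin resistance changes, had 482, 533 and 404 against 759, 848 and 806. Its groups were well apart, with a log2 fold change of 0.77 (limma-trend SE 0.099 and adjusted p = 1.26e-06).

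MRPS17 (ENSG00000239789, chromosome 7, 55951819 to 55956501), a relative of bacterial S17, had the lowest counts of the members in the controls, with 67.4, 44.7 and 42.6 in the controls and 112, 84.4 and 77.5 in the knockouts. The log2 fold change was 0.82 (limma-trend SE 0.245 and adjusted p = 0.0102), and without knockout 1 the adjusted p was 0.0695. MRPS17 overlaps the far more abundant NIPSNAP2 on the same strand, whose mean went from 1154 to 1578 (log2 fold change 0.45). Reads may be shared there too, so the value of MRPS17 is uncertain. MRPS28 (ENSG00000147586, chromosome 8, 79918717 to 80030289) was low as well, at 106, 81.7 and 112 against 164, 161 and 152. Its knockout libraries were all higher, with a log2 fold change of 0.68 (limma-trend SE 0.176 and adjusted p = 0.00377). MRPS26 (ENSG00000125901, chromosome 20, 3045945 to 3048254), a mitochondria-specific protein, had 514, 414 and 526 against 781, 650.4 and 690.1. The groups were apart, and the log2 fold change was 0.55 (limma-trend SE 0.103 and adjusted p = 0.000156).

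MRPS30 (ENSG00000112996, chromosome 5, 44808925 to 44820428) had the highest count of the genes with MRPS names, 2551, 2668 and 2698 in the controls and 2917, 3262 and 2968 in the knockouts. Its rise was small, 0.21 on the log2 scale (limma-trend SE 0.060 and adjusted p = 0.00837), and without knockout 2 the adjusted p was 0.0950. In structures of the human particle its protein sits in the large subunit despite the name. The other genes called higher were MRPS25 (0.54), MRPS14 (0.48), MRPS21 (0.40), MRPS16 (0.38), MRPS15 (0.25), MRPS34 (0.24) and MRPS5 (0.20). MRPS16, next in abundance after MRPS30, held 2159 to 2247 in the controls and 2837 to 2862 in the knockouts. MRPS9 (ENSG00000135972, chromosome 2, 105037983 to 105099960), which reaches toward the peptidyl site, was the small-subunit gene that fell, from 667, 626 and 637 to 598, 521 and 495. Its log2 fold change was -0.26 (limma-trend SE 0.093 and adjusted p = 0.0298). That call was lost on leaving out any of 5 of the 6 libraries, all but knockout 1, with adjusted p from 0.0535 to 0.142.

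The 3 paralogs of bacterial S18 gave different values. MRPS18A (ENSG00000096080, chromosome 6, 43671303 to 43687791), whose protein is a large-subunit component in structures, had 414, 473 and 411 in the controls and 376, 359 and 346 in the knockouts. All knockouts were lower, but the log2 fold change of -0.26 (SE 0.105) had a limma-trend adjusted p of 0.0583. It was 0.0493 with TMM scaling, 0.0438 with edgeR on reads and 0.0221 with adjustment over the tested genes only. MRPS18C (ENSG00000163319, chromosome 4, 83455932 to 83469735) had 253, 254 and 242 against 363, 295 and 298, a log2 fold change of 0.34 (limma-trend SE 0.124 and adjusted p = 0.0326). Its call was lost without any 1 of control 1, 2 or 3 or knockout 1, with adjusted p from 0.0567 to 0.198. MRPS18C overlaps ABRAXAS1 on the opposite strand, whose log2 fold change was -1.28, so both values are uncertain without knowledge of how strand was used. A processed pseudogene of MRPS18A, MRPS18AP1, was listed at 3.07 to 9.91 in controls and 11.2 to 27.8 in knockouts, and reads may be split between the copies. MRPS18B is outside the table.

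Placing MRPS30 and MRPS18A with the large subunit, as structures do, gave 31 of 38 large-subunit genes higher and 5 lower, and their median log2 fold change was 0.33. The small subunit then had 13 of 14 higher and 1 lower, with a median of 0.44. Of the 35 members with bacterial relatives 31 were higher and 2 lower, with a median of 0.37. The 17 mitochondria-specific members had 13 higher and 4 lower, with a median of 0.28, and those 4 were MRPL38, MRPL45, MRPL50 and MRPL58. The difference between these classes was not tested.

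Levels can be compared between genes only per length. As normalized counts per kilobase of gene model, large-subunit genes in the controls ran from 28.96 (MRPL38) over a median of 338 to 1377 (MRPL3), and small-subunit genes from 23.9 (MRPS17) over 272 to 915 (MRPS34). In the knockouts the large subunit ran from 16.8 over a median of 430 to 1777 and the small subunit from 42.2 over 315 to 1080, with the same genes at each end. The members of 1 particle thus had transcripts at widely different levels in both groups. Summed over the 52 members, normalized counts made up 0.371% to 0.383% of the listed total in control libraries and 0.423% to 0.452% in knockout libraries.

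The knockout libraries were not alike in the size of the members' rise. Knockout 1 held the highest of the 3 knockout values in 37 of the 52 members and knockout 3 the lowest in 42, whereas over all tested genes knockout 1 was highest in 38.3% and knockout 3 lowest in 39.3%. The median log2 value of the members over the control mean was 0.45 in knockout 1, 0.37 in knockout 2 and 0.26 in knockout 3. Knockout 3 was nevertheless above the control range of the family's summed count, at 49654 against 42160 to 42956. The median coefficient of variation within a group was 6.04% in the controls and 7.10% in the knockouts. Leaving out 1 library at a time left 31 to 44 members called higher, with 31 without knockout 2, and 30 of the 50 calls held in all 6 cases.

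Members fell together on 1 chromosome, where most of the other tested genes fell too. On chromosome 17, 4 of 5 members were called lower and none higher, while 73.7% of the 543 other tested genes there were called lower and their median log2 fold change was -0.48. Members on chromosomes with a median above 0 rose almost without exception. On chromosome 1 all 7 rose, on chromosome 11 all 5, on chromosome 19 all 4 and on chromosome 8 all 3, where the other genes had medians of 0.27, 0.28, 0.33 and 0.39. Of those other genes 55.6%, 57.5%, 64% and 67.4% respectively were called higher. In all, the 10 chromosomes whose other genes had a median above 0 held 32 members, 31 higher and none lower, beside 58.4% of the other genes called higher. The 9 with a median below 0 held 20 members, 13 higher and 6 lower, beside 33.2% of the other genes higher and 61.8% lower. Leaving out chromosome 17, 8 such chromosomes held 15 members, of which 13 were higher and 2 lower (MRPL50 and MRPS9), while 35.5% of their 2476 other genes were called higher.

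**Figure D3:**
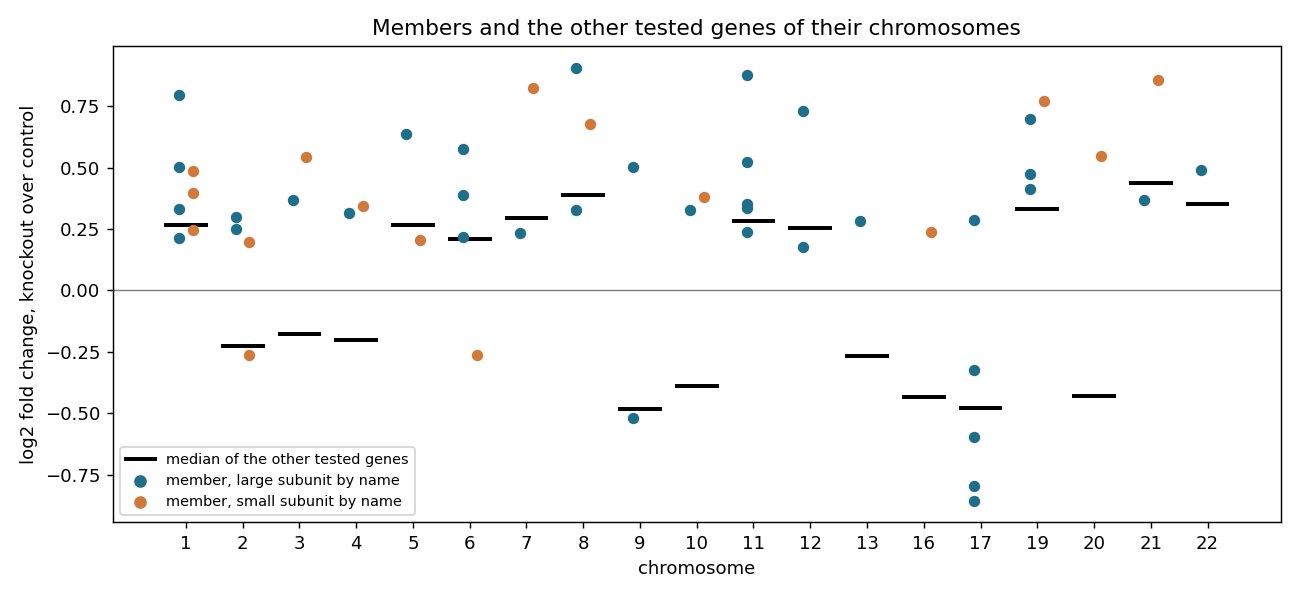
Log2 fold change of each member by chromosome, large and small subunit in different colours, with a black bar at the median of the other tested genes of that chromosome. Points lie above 0 on most chromosomes, while 4 of the 5 on chromosome 17 lie below 0 with their chromosome's median of -0.48.

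Genes closer by were compared next. For each member the median log2 fold change was taken over the other tested genes whose midpoint lay within 5 Mb, which was possible for 51 members with at least 5 such neighbours, MRPS28 having 4. Across the 51 the member's value and its neighbours' median had a Pearson r of 0.61 and a Spearman rho of 0.56, given as a description since the points share libraries and nearby members share neighbours. Where the neighbours' median was above 0, 33 of 34 members were higher, MRPS18A being the other. Where it was below 0, 10 of 17 were higher and 6 lower. In 35 of the 51 the member lay above its neighbours. With each gene's neighbours' median taken off, the median log2 fold change was 0.14 over the members and -0.00036 over all tested genes. The same counts over all tested genes are not given here, so these counts stand without a background share.

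Of these 17, 11 had values above 0 in the midst of neighbours that were mostly lower. MRPL43 on chromosome 10 had 325, 355 and 364 in the controls and 441, 455 and 413 in the knockouts, a log2 fold change of 0.33, while only 4 of its 71 neighbours were above 0 and their median was -0.66. MRPS34 on chromosome 16 had 993, 988 and 1031 against 1163, 1272 and 1118, a log2 fold change of 0.24, and its 73 neighbours had a median of -0.49. Without knockout 2 the limma-trend adjusted p was 0.0787 for MRPL43 and 0.112 for MRPS34, and without control 1 it was 0.0652 for MRPL43. For MRPS26 on chromosome 20 the neighbours' median was -0.46 and for MRPS25 on chromosome 3 it was -0.21. The others were MRPL15, MRPL57, MRPL12 (not called), MRPL41, MRPL1, MRPS18C and MRPL35. The printed promoters of MRPL43 and MRPS34 both hold ETS cores close to the start, as does that of MRPL58, which fell. The part of these cores in the changes was not tested. Of the lower members, MRPL10 stayed called with its neighbours' median of -0.63 taken off, at -0.23 on the log2 scale (limma-trend adjusted p = 0.0289). MRPL38, MRPL45, MRPL50, MRPL58 and MRPS9 did not, at -0.27, -0.09, 0.09, 0.21 and -0.09. With the neighbours' medians removed, 20 of the 52 members were higher and 2 lower, in place of 44 and 6. Of the 7516 tested genes 2262 were then higher, in place of 3557, and the number lower is not given here. MRPS28 has too few neighbours for a median, so nothing was taken off its value, and it counts among the 20. Of the 50 calls 30 were lost, among them those of MRPL3, MRPS17 and MRPS30, with adjusted p of 0.101, 0.517 and 1, and MRPL12 and MRPS18A gained one. MRPS28 lost its call with the chromosome's median removed, at an adjusted p of 0.456. Copy number was not measured in these libraries, and its part in the chromosome pattern was not tested.

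**Figure D4:**
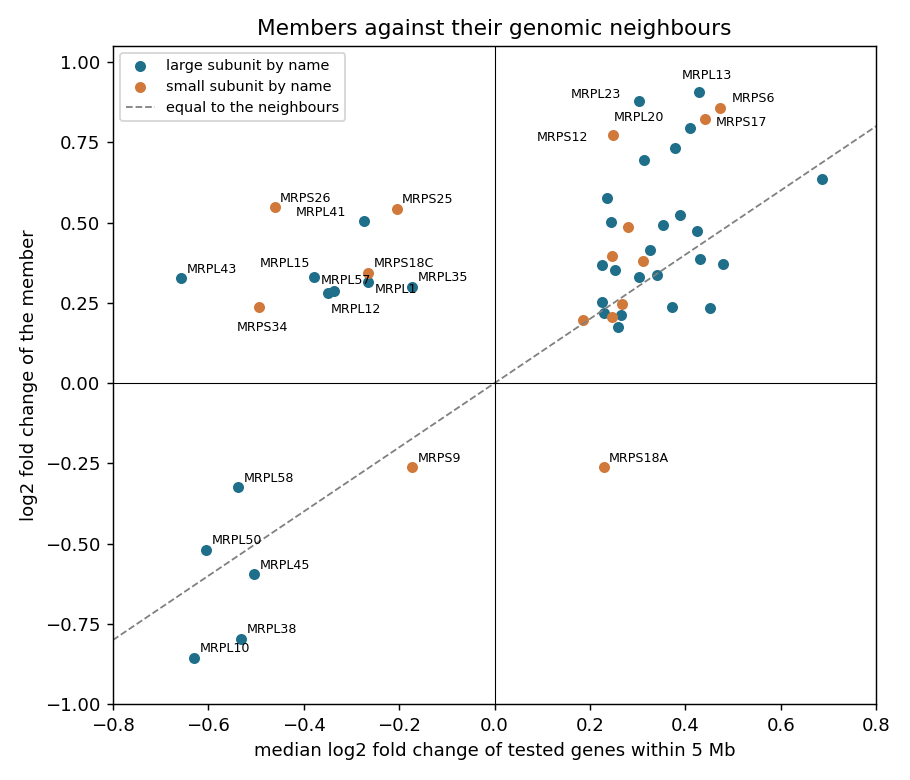
Log2 fold change of 51 members against the median log2 fold change of the tested genes within 5 Mb, with the dashed line where both are equal. Most points are at upper right; 11 members lie above 0 at neighbour medians below 0, and MRPS18A is alone at lower right.

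Gene length moved weakly with the fold change in the table, with a Pearson r of -0.09 and a Spearman rho of -0.15 across the 7516 genes, which are not independent, and the members are short. Their median gene model was 2258.5 bases against 5086 over all tested genes. Among 1140 other tested protein-coding genes of 1618.5 to 3143 bases, the range between the members' quartiles, 64.6% were above 0, the median log2 fold change was 0.34, and 697 were called higher and 377 lower. The members' median of 0.35 was near that value, while their share above 0, 86.5%, was larger. Within the 52 members length and log2 fold change had a Pearson r of -0.02 and a Spearman rho of -0.09. With a smooth trend on length removed, 19 members were higher and 7 lower, in place of 44 and 6, while over all tested genes 3159 were higher and 3082 lower, in place of 3557 and 3513. MRPS17, MRPS26 and MRPS28 then had adjusted p of 0.0588, 0.0819 and 0.0629, and MRPL43 of 0.0549. MRPS34 turned to -0.063.

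Of the 52 members, 19 start within 1000 bases of a protein-coding gene on the opposite strand, an arrangement in which both may share a promoter region. In 7 pairs the partner was tested as well, and in 5 of these the values had the same sign. MRPL36 (0.63) and NDUFS6 (1.09), a subunit of respiratory complex I, start 34 bases apart. MRPL18 (0.39) was paired with the chaperonin gene TCP1 (0.59), MRPL49 (0.24) with FAU (0.36), and MRPL43 (0.33) with TWNK (0.25, not called), the mitochondrial DNA helicase. MRPL50 (-0.52) was paired with ZNF189 (-0.74), both lower. The signs differed for MRPL14 (0.58) with TMEM63B (-0.28) and MRPL30 (0.25) with MITD1 (-0.27). MRPL14, MRPL43 and MRPL49 overlap these partners, and reads may be shared if strand was not used in counting. No rate of sign agreement for other gene pairs is given here. Counting all overlaps, 30 members share bases with another annotated gene, and 15 of them with a protein-coding gene on the opposite strand.

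Other genes of mitochondrial translation were read from written lists, and many of their genes are outside the table. Of 5 mitoribosomal proteins with other names, the 3 tested were all higher. AURKAIP1, a small-subunit protein, had a mean normalized count of 725 ± 31.9 (SD, n = 3) in the controls and 1363 ± 50.4 (SD, n = 3) in the knockouts, a log2 fold change of 0.91. CHCHD1, also of the small subunit, had a log2 fold change of 0.69 and GADD45GIP1, of the large subunit, of 0.68. Of 32 genes for ribosome assembly and rRNA modification, 11 were tested, 7 higher and 2 lower. MALSU1, which keeps an unfinished large subunit from joining, had a log2 fold change of 0.52, RCC1L of 0.48 and MTERF3 of 0.43, whereas the small-subunit rRNA methyltransferase METTL15 was at -0.43.

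Translation factors did not share a direction. Of 18 written, 10 were tested, 6 higher and 4 lower. SLIRP, a partner of LRPPRC that stabilises mitochondrial messages, went from 437 ± 27.7 (SD, n = 3) to 871 ± 67.9 (SD, n = 3), a log2 fold change of 0.99. The elongation factor TSFM was at 0.78, and MSS51, a low gene with a mean of 62.9, at 0.70. MRRF, the ribosome recycling factor, fell from 915 ± 34.6 (SD, n = 3) to 546 ± 10.8 (SD, n = 3), a log2 fold change of -0.74 (limma-trend SE 0.080 and adjusted p = 1.04e-07). The recycling factor thus stood opposite to most of the ribosomal proteins, as did the initiation factors MTIF2 (-0.46) and MTIF3 (-0.45). These initiation factors were chosen after their values were seen. TACO1 was the other lower factor, at -0.26. Neighbours within 5 Mb had a median of -0.70 for MRRF, -0.67 for TACO1 and -0.24 for MTIF3. MTIF2 had 4 such neighbours, too few for a median. The part of position in these values was not tested. Of 20 mitochondrial tRNA synthetases and related enzymes, 10 were tested, 8 higher and 2 lower, with CARS2 at 0.89, IARS2 at 0.50, MARS2 at 0.46 and RARS2 at 0.45.

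The RNA of the large mitochondrial subunit moved against its proteins' messages. MT-RNR2, the large-subunit rRNA encoded by the mitochondrial genome, had 110447, 109530 and 119215 in the controls and 71561, 63684 and 58727 in the knockouts. All knockouts were lower, at a log2 fold change of -0.81 (limma-trend SE 0.082 and adjusted p = 3.59e-08). The 12 other tested genes of the mitochondrial genome had a median log2 fold change of 0.44, so MT-RNR2 differed from that median too. These libraries were made from poly-T selected RNA, which captures this rRNA only through its short tails, and that share was not measured. Of the cytosolic ribosomal proteins, 36 were tested, of which 17 were higher and 11 lower, and their median log2 fold change was 0.19. The mitochondrial members' median of 0.35 stands beside that value without a test of the difference.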

How the data were processed

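Libraries were made from poly-T selected RNA with a directional kit, per the labels' protocols. The submitters' processing notes name HISAT2, DESeq2 and the build hg38, without versions. The authors deposited normalized counts, a signal equal to read counts divided by size factors, beside their own log2 fold changes and p-values, for genes with a p-value of at most 0.05. The unit was not raw counts, so genes with a mean of at least 10 were tested, two-sided and with no replicate block, by limma-trend (R 4.3.3, limma 3.58.1) after a log2 transform with a pseudocount of 1. Whole reads were recovered in 100% of values within 0.001. These served the edgeR 4.0.16 and DESeq2 1.42.0 alternatives and the depths, although in control 3 and knockout 2 a read is worth 0.991 and 0.993, too near 1 for a firm check. Chi-square per degree of freedom between replicates was 3.84 to 12.0, so none was a duplicate. The limma-trend fit was tested on simulated data. Neighbours are tested genes with midpoints within 5 Mb, and the length trend is a loess of span 0.5. Full values are given, by rule, for the 5 called members with the largest rise in each subunit, every member called lower, the most abundant in each subunit, those not called, the S18 paralogs, and up to 4 called genes per other list with a mean of at least 50. Members and lists were chosen with earlier results of these data known. Promoters came from RefSeq, GRCh38.p14, and annotation from GENCODE release 29, whose coordinates matched all 52 members. A few markers of other blood cells were left out of that list and are not reported here.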

Additional observations from a re-analysis of the deposited data

How the results depend on the processing

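The counts of members called higher and lower kept their sizes under TMM scaling (43 and 7), edgeR on reads (43 and 7), DESeq2 on reads (40 and 6) and, less fully, upper-quartile scaling (35 and 7). Filters and pseudocounts gave 43 to 44 higher. A replicate block gave 45 higher and 6 lower. Deviations from the group means correlated at 0.009, -0.003 and -0.050 between equal-numbered libraries and at -0.031 to 0.036 between the others. With 3 libraries a group this does not settle whether equal numbers share a culture. Of the members, the block changed the call of MRPL12. Small-subunit genes lower were 2 under TMM scaling, upper-quartile scaling, edgeR, adjustment over the tested genes only, and length-trend removal.

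Leaving out 1 library gave 31 to 44 members higher and 4 to 5 lower, 21 to 31 and 4 to 5 in the large subunit, 10 to 13 and 0 to 1 in the small, and 3 to 4 lower on chromosome 17. Over all genes it gave 3053 to 3281 higher and 3057 to 3258 lower. For assembly it gave 6 to 7 higher and 1 to 3 lower, for factors 4 to 6 and 2 to 4, for synthetases 6 to 7 and 1 to 2, for the other mitoribosomal proteins 3 and 0, and for KMT5A -0.43 to -0.38.

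Removing each chromosome's median, which moves the median of all tested genes by -0.13 and each gene by its own chromosome's value, left 24 members higher and 2 lower (large 16 and 1, small 8 higher, chromosome 17 1 lower). It left 2314 of the 7516 tested genes higher, in place of 3557, with the number lower not given here. It also left 1 assembly gene and 4 synthetases higher, and 2 factors lower. Signs turned for MRPL58 (0.15), MRPL42 (-0.080), MRPL9 (-0.052), MRPL32 (-0.060), MRPL49 (-0.048), MRPL15 (-0.059), MRPL39 (-0.068), MRPS30 (-0.059) and MRPS15 (-0.019). Removing neighbours' medians, which moves the median of all tested genes by -0.14, left 20 higher and 2 lower (large 13 and 1, small 7 higher, chromosome 17 1 lower). It left 2262 of the 7516 tested genes higher, with the number lower not given here. Among the lists it left 1 assembly gene higher and 1 lower, 2 factors lower, and 3 synthetases higher and 1 lower. Genes with fewer than 5 neighbours, MRPS28 and MTIF2 among them, kept their values unchanged in this setting. Signs turned for MRPL50 (0.085), MRPL58 (0.21), MRPL42 (-0.084), MRPL9 (-0.052), MRPL2 (-0.0096), MRPL32 (-0.22), MRPL49 (-0.14), MRPL16 (-0.0031), MRPL39 (-0.11), MRPL18 (-0.043), MRPL36 (-0.051), MRPS30 (-0.039) and MRPS15 (-0.021). Removing the length trend, which moves that median by -0.11, left 19 higher (large 11, small 8) and 1 synthetase lower, while all tested genes gave 3159 higher and 3082 lower, and turned MRPL9 (-0.0081), MRPL12 (-0.020) and MRPS34 (-0.063).

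A log2 fold change of at least 0.5 was reached upwards by 16 of the 52 members (large 10, small 6). The large-subunit genes MRPL10, MRPL38, MRPL45 and MRPL50 reached it downwards, with 0 small-subunit genes lower. Of the 7516 tested genes 1822 were higher and 2038 lower at this size. For assembly these were 1 and 0, for factors 3 and 1, for synthetases 1 and 0, and KMT5A (-0.41) did not reach it. Testing genes of low values too moved the median of all genes by -0.26 and left the members' at 0.35. The causes of these differences were not tested beyond what each setting changes by construction.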
